A study of Mus musculus with 17 samples.

Results

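Expression of 10 chromatin regulator genes that act as tumour suppressors in biliary cancer was measured by RNA-seq in mouse bile duct. The genes were Arid1a, Arid1b, Arid2, Pbrm1, Smarca4 and Smarcb1, which encode subunits of the SWI/SNF remodelling complexes, the histone methyltransferase genes Kmt2c, Kmt2d and Setd2, and the deubiquitinase gene Bap1. They were found by their exact gene names in the deposited table, where 10 of 43346 genes matched. The study's titles name extrahepatic cholangiocarcinoma (eCCA), a tumour of the larger bile ducts. Every one of the 17 libraries was labelled as bile duct from Mus musculus, and the labels used here give no genotype, strain, treatment, time or age and do not say whether the libraries came from separate animals. The p-values below therefore measure only the spread between these libraries, which may be technical.

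Each column name joins a code to a number, and none matched a sample title. The 6 codes (R62848, R62850, R63289, R63496 and R63500 with 3 libraries each, and R63494 with 2) come from the column names alone, and nothing used here says what they mean or whether they follow groups of the study. A code was compared with the mean of the other 5 codes, to ask whether a gene differed between codes by more than between libraries of a code. Library totals were 16400556 to 24152314 counts, and no pair of libraries had counts that agreed within sampling noise. All 10 cholangiocyte markers were counted in every library, with summed levels of 6325 to 9059 CPM (counts per 1e6 on library sizes scaled by the TMM method). Markers of pancreatic acinar cells, all 11 of them, were counted in each R62850 library and took 0.586%, 2.34% and 11.3% of its counts, against at most 0.0152% in any library of the other codes. In such bulk tissue, fewer cells of a type and less RNA per cell cannot be told apart.

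SWI/SNF complexes use the energy of ATP to slide or evict nucleosomes, through a catalytic subunit, Smarca4 (BRG1) or its paralogue Smarca2 (BRM). The canonical BAF form carries Arid1a or Arid1b, the PBAF form carries Arid2 and Pbrm1, and Smarcb1 belongs to both. Kmt2c and Kmt2d place methyl groups on lysine 4 of histone H3 at enhancers, Setd2 trimethylates lysine 36 of histone H3 in transcribed genes, and Bap1 removes ubiquitin from histone H2A. ARID1A, PBRM1 and BAP1 are among the genes that are recurrently mutated in human biliary cancers.

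Promoter sequences of 9 of the 10 genes were matched in RefSeq (build GRCm38.p6), each with 250 bases before and 50 bases after an annotated start. Such a start need not be the outer end of the gene given below: the Arid1b window and 1 of the Arid1a pair lie inside the gene. Arid2 was not matched. The motif CG, which reads the same on both strands, was counted, because CG-rich promoters mark genes that are active in most tissues. The 10 promoters of the 9 genes (Arid1a has a pair) held 22 to 56 CG, highest in Kmt2c with 56 and Bap1 with 50, against a median of 7 and an upper quartile of 20 over all 32851 promoters of the table, of which 94.57% held at least 1. The promoters of 3 genes are shown because their expression profiles mark the extremes described below: Arid1a, which followed the profile shared by most of the 10 genes, Smarcb1, whose profile was farthest from its nearest neighbour among the 10, and Bap1, the steadiest. Capitals mark each CG.
Arid1a promoter at the outer start, chr4:133756720-133757019, minus strand, 22 CG: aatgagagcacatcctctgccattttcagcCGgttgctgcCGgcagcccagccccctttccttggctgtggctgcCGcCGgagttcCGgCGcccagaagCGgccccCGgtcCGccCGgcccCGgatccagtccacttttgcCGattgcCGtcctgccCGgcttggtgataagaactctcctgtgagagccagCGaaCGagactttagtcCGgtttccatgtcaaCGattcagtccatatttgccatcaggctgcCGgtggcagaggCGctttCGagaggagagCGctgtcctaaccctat
Smarcb1 promoter, chr10:75921565-75921864, minus strand, 27 CG: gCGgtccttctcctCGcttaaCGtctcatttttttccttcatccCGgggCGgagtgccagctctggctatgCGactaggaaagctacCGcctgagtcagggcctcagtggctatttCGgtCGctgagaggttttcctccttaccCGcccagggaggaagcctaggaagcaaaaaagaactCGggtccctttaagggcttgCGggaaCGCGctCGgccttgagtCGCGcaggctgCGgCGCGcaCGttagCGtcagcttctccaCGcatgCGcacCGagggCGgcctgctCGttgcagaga
Bap1 promoter, chr14:31251239-31251538, plus strand, 50 CG: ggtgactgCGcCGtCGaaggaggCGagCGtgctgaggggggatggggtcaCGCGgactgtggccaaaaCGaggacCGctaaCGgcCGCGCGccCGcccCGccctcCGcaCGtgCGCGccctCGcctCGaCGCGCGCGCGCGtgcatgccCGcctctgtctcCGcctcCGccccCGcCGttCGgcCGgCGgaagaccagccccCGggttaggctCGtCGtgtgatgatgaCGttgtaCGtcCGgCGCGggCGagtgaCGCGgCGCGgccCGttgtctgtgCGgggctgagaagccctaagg
These letters are a description of the windows, and no methylation or binding was measured.

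All 10 genes were expressed in all 17 libraries, with 679 to 9337 counts per gene and library. Levels between genes are given as RPKM, that is per kilobase of the gene length in the deposited table and per library size in the same scaling as CPM. Smarca4, the ATPase, was the highest, with a median of 26.8 RPKM (21.2 to 31.0), and its range did not overlap that of the next gene. Arid1a, the DNA-binding subunit of BAF, followed with 15.3 RPKM (11.1 to 16.8), and its paralogue Arid1b had 9.47 RPKM (6.99 to 10.5). Of the PBAF subunits, Pbrm1, which reads acetylated histones through bromodomains, had 9.71 RPKM (7.18 to 12.2) and Arid2 had 5.79 RPKM (4.22 to 6.83). Arid1a was above Arid1b and Pbrm1 was above Arid2 in each of the 17 libraries. The core subunit Smarcb1 stood at 7.95 RPKM (6.59 to 10.1).

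Among the other chromatin enzymes Kmt2d was the highest, with 14.1 RPKM (8.88 to 20.2), and the related Kmt2c was the lowest of all 10 genes, with 4.12 RPKM (2.86 to 6.62). Kmt2d lay above Kmt2c in every library, and with the deposited gene lengths the ranges of the pair did not overlap. Bap1 had 10.98 RPKM (8.68 to 12.4) and Setd2 had 9.89 RPKM (7.64 to 11.7). Setd2, Pbrm1 and Arid1b were close to each other, since Setd2 was above Pbrm1 in 12 of 17 libraries and Pbrm1 above Arid1b in 13. Smarca4 exceeded Arid1a in 17 of 17 libraries, but Arid1a exceeded Kmt2d in only 14.

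**Figure D1:**
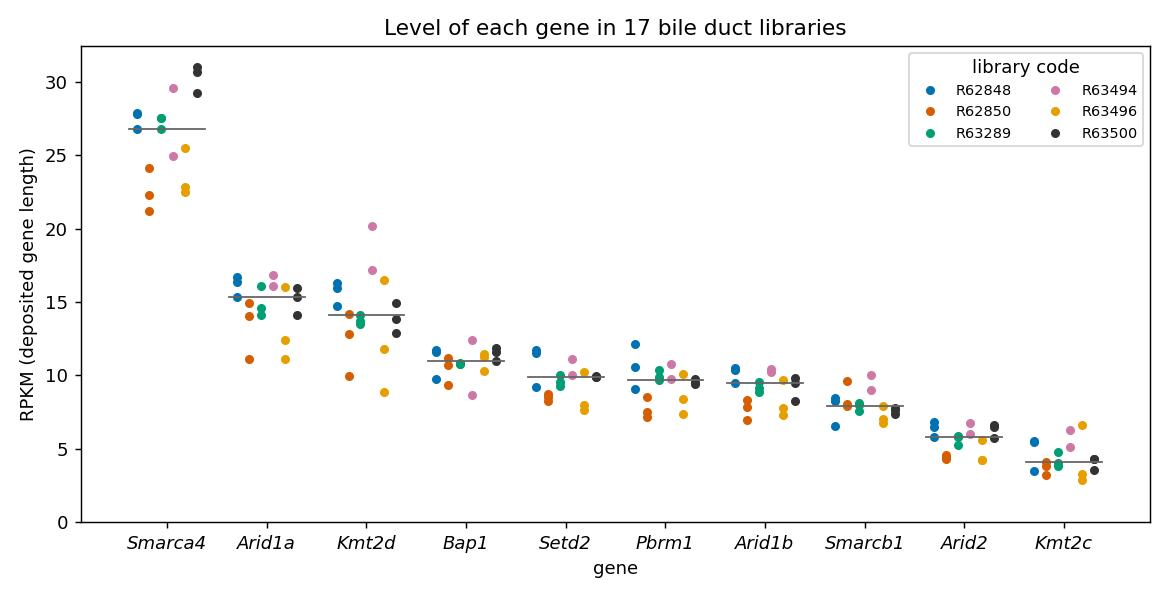
Level of each gene in RPKM (deposited gene length) in 17 libraries. Points are libraries coloured by code and the line is the median. Smarca4 (21.2 to 31.0 RPKM) stands clear of the other 9 genes and Kmt2c (median 4.12 RPKM) is the lowest.

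The order of levels depended on the gene length, most of all for Smarcb1. The table gives Smarcb1 a length of 7930 bases, 4.78 times the 1660 bases of its principal transcript of 9 exons in GENCODE M21. With the principal transcript lengths, an alternative chosen after the data were seen, Smarcb1 had the highest level, with a median of 37.99 RPKM (31.5 to 48.0), above Smarca4 (27.3 RPKM) in 17 of 17 libraries. Arid1a then had 21.5 RPKM, Bap1 14.9 RPKM, Kmt2d 14.2 RPKM, Pbrm1 13.1 RPKM, Arid1b 10.5 RPKM, Setd2 9.89 RPKM, Arid2 7.31 RPKM and Kmt2c 5.59 RPKM. Under both lengths Arid2 and Kmt2c were the lowest. With the principal transcript lengths the ranges of Kmt2d (from 8.91 RPKM) and Kmt2c (up to 8.97 RPKM) overlapped. So did those of Smarca4 (from 21.6 RPKM) and Arid1a (up to 23.6 RPKM). The choice of length does not touch the comparisons between libraries of a gene.

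**Figure D2:**
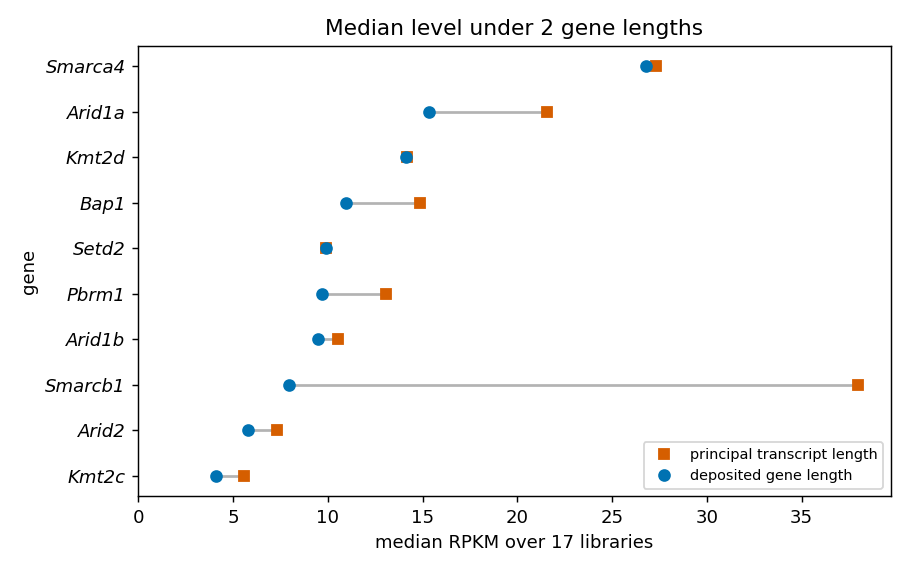
Median RPKM over 17 libraries with the deposited gene length (circles) and with the principal transcript length (squares). Smarcb1 moves to 37.99 RPKM with the principal transcript, against 7.95 RPKM with the deposited length, and Setd2 and Kmt2d hardly move.

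The genes lie on 7 chromosomes of mm10. Arid1a is at chr4:133679008-133756769 and Arid1b at chr17:4994332-5347656. Pbrm1 (chr14:31019138-31121592) and Bap1 (chr14:31251450-31259944), whose human counterparts both lie on the short arm of chromosome 3, share a chromosome in the mouse as well, 129858 bases apart. Arid2 (chr15:96287518-96404992) and Kmt2d (chr15:98831669-98871204) share a chromosome, as do Setd2 (chr9:110532597-110618633) and Smarca4 (chr9:21616169-21704230). Kmt2c is at chr5:25271798-25498783 and Smarcb1 at chr10:75896769-75921617. Because no source used here gives the strand setting, reads of Pbrm1 and of the opposite-strand gene Gnl3 cannot be told apart over the 15 exonic bases they share, and the same holds for 274 bases of Kmt2c and Gm42585.

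By the median, the 10 genes had a smaller spread than all genes: their median SD of log2 CPM over the 17 libraries was 0.19, beside 0.34 over all 19412 tested genes. Bap1 was the steadiest, with an SD that 7.41% of tested genes undercut, a median of 51.4 CPM, and extremes of 40.7 and 58.2 CPM that both fell in code R63494. Kmt2c was the most variable, with 58.0 to 134 CPM around a median of 83.7 CPM, and its extremes also shared a code, R63496; 51.2% of tested genes had a smaller SD. Kmt2d, at 177 to 402 CPM, came next. The comparison with all tested genes was not matched for count level, and genes with few counts can spread widely (Asxl3, 0 to 1.72 CPM, SD 1.02). A small spread was not particular to the 10. Of the partner genes described below, Eed (SD 0.097), Smarcd2 (0.118) and Rbbp4 (0.119) were steadier than Bap1 (0.132). Kdm6a (0.40) and Kmt2a (0.39) varied more than Kmt2c (0.35).

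Most of the 10 genes went up and down together from library to library. In library R63496_3 none of the 10 was above its own mean over the libraries and their median log2 CPM lay 0.33 below it (-0.33), and in R62850_2 again none was above (-0.20). In R63494_2 all 10 were above their means, with a median of 0.19. Genes longer than 8000 bases were taken by the deposited length, which can exceed that of the principal transcript (Pbrm1, 8846 against 6566 bases). The mean of the 1802 such tested genes, a rough sign of how well long RNAs are represented, moved in part with the 10 genes. It was -0.20 in R63496_3, -0.18 in R63496_2 and -0.22 in R62850_1, and 0.21 in R62848_2, where the median of the 10 genes was 0.22. In the R63494 libraries it was -0.01 and -0.06 while the 10 genes stood high. The part of RNA length in these shifts was not tested. Library R63496_1 stood apart from the other libraries of its code, with a median of 0.10 for the 10 genes against -0.23 in R63496_2 and -0.33 in R63496_3. The share of all tested genes above their own means in each library was not counted, so these shifts are not shown to be particular to the 10 genes.

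**Figure D3:**
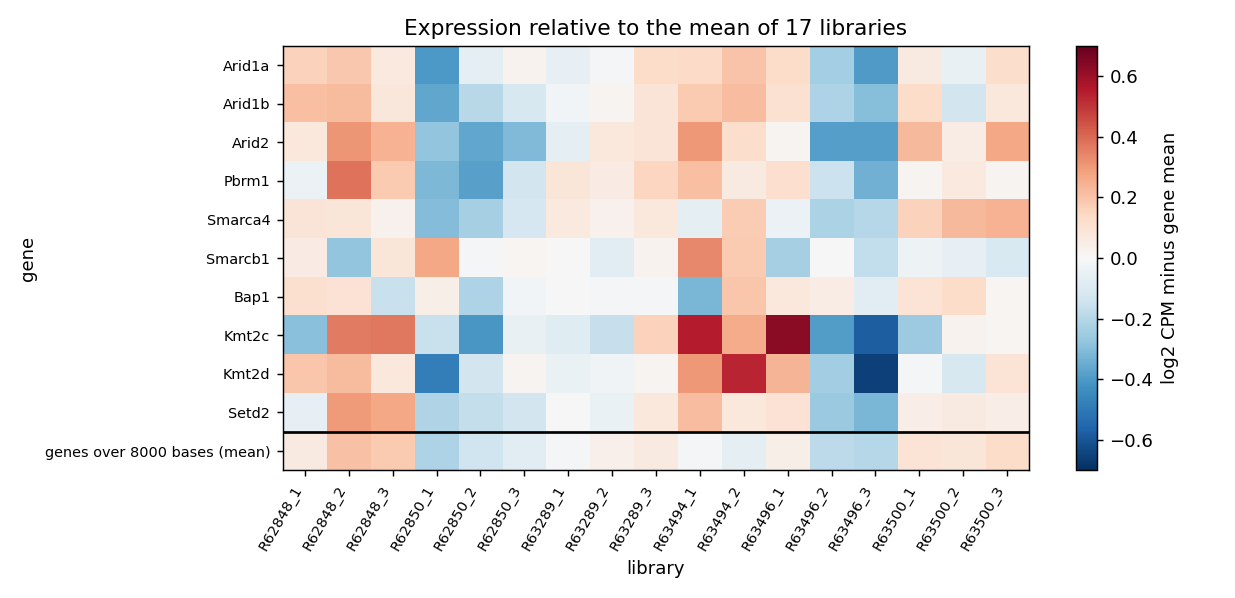
log2 CPM of each gene minus its mean over 17 libraries (colour scale), with the mean of the tested genes over 8000 bases in the bottom strip. Most genes are low in R62850_1, R62850_2, R63496_2 and R63496_3 and high in R62848_2 and both R63494 libraries, while Smarcb1 and Bap1 follow other patterns.

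Likeness of profiles was measured as the root mean square distance between mean-centred log2 CPM over the 17 libraries. Arid1a and Arid1b, which replace each other in BAF, were each other's nearest gene among all tested genes, at a distance of 0.064, beside a median distance from Arid1a to all tested genes of 0.38. Pbrm1 and Setd2 were 0.080 apart, and Setd2 ranked 5 among the genes nearest to Pbrm1. Most other pairs were less close. By nearness to Arid1a, Setd2 ranked 87 among tested genes, Kmt2d 138, Smarca4 254, Pbrm1 262 and Arid2 651. Bap1 ranked 2561, Smarcb1 4294 and Kmt2c 4931, so many genes outside the 10 followed the profile of Arid1a as closely. The nearest genes outside the 10 were Zfp217 (0.072) and Arel1 (0.075) for Arid1a, Nacc2 (0.072) and Whsc1l1 (0.077) for Arid1b, Tpr (0.077) for Arid2, and Ppip5k2 (0.066) and D15Ertd621e (0.075) for Pbrm1. They were Gramd4 (0.074) and Hnrnpu (0.077) for Smarca4, Ankfy1 (0.058) and Ercc6l2 (0.067) for Setd2, Ppip5k1 (0.11) and Tet3 (0.12) for Kmt2d, and Kif1b (0.15) and Vps13d (0.16) for Kmt2c. Smarcb1 was nearest to Gm17344 (0.10) and Cstf1 (0.11), and the nearest of the other 9 genes, Bap1, ranked only 4601 from it. Bap1 was nearest to Uxs1 (0.094) and Chtop (0.096).

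Between codes, 5 of the 10 genes differed by more than the spread within codes, where 42.2% of all 19412 tested genes did and 59.0% of those over 8000 bases. The count is near that background and is not a result about these genes. The 5 were Arid2 (adjusted p = 0.000713, edgeR quasi-likelihood F test over the codes), Smarca4 (adjusted p = 0.00220), Arid1b (adjusted p = 0.0147), Pbrm1 (adjusted p = 0.0191) and Setd2 (adjusted p = 0.0408). The call of Setd2 was lost when any of 15 libraries was left out. Smarcb1 (adjusted p = 0.0672), Kmt2d (0.0704), Arid1a (0.130), Kmt2c (0.563) and Bap1 (0.893) did not pass by the same test. Without R63496_1, 8 of the 10 genes were called, including Kmt2d, Kmt2c and Arid1a. Without R62850_1 or without R62850_2 the number was 3. Over all tested genes the leave-outs gave 7188 to 8531 calls, against 8194 in the full fit.

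Code R62850 had the most calls, all of them lower: Arid2, Pbrm1, Arid1b and Smarca4, 4 of 10, where 11.2% of all tested genes and 30.2% of genes over 8000 bases were lower. Arid2 was at 48.8, 46.0 and 47.7 CPM in the R62850 libraries, against 45.3 to 73.3 CPM (median 62.6) in the 14 libraries of the other codes. The R62850 libraries were alike and near the bottom, and overlapped the others only through R63496_2 and R63496_3. The log2 difference for Arid2 was -0.40 ± 0.09 (SE, adjusted p = 0.00257).

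Pbrm1 was at 66.4, 63.5 and 75.7 CPM in R62850, against 65.4 to 108 CPM in the other codes, a log2 difference of -0.34 ± 0.09 (SE, adjusted p = 0.0101). Smarca4 was at 137, 144 and 156 CPM in R62850, against 146 to 201 CPM in the other codes (-0.27 ± 0.07, adjusted p = 0.00626), and Arid1b at 88.0, 99.3 and 105 CPM, against 92.2 to 132 CPM (-0.28 ± 0.08, adjusted p = 0.0162). In each of these 3 genes the ranges overlapped. Setd2 (-0.22 ± 0.08) and Kmt2d (-0.26 ± 0.13) did not pass, nor did Arid1a (-0.18 ± 0.09), Kmt2c (-0.30 ± 0.22), Bap1 (-0.08 ± 0.09) or Smarcb1 (0.10 ± 0.08). Over the 10 genes the median log2 difference was -0.26, beside -0.18 over genes longer than 8000 bases and -0.0024 over all tested genes.

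Relative to their means over the libraries, the median log2 CPM of the 10 genes was -0.29 in R62850_1, where acinar markers took 0.586% of the counts, and -0.08 in R62850_3, where they took 11.3%. Heat shock genes summed to 1288 to 1403 CPM in R62850, inside the range of 170 to 2836 CPM in the other codes. Of those, only the R63494 libraries and R63500_2 (1915 CPM) were above R62850. Their part in the result was not tested. Only the call of Arid2 held whichever library was left out. Without R62850_1, 1 of the 10 genes was called, and without R62850_2, 2 were. Over all tested genes 2418 and 2767 were called in those fits, against 4225 in the full fit.

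In R63494, Kmt2d was higher, at 342 and 402 CPM, against 177 to 328 CPM (median 276) in the 15 libraries of the other codes, with no overlap and a log2 difference of 0.46 ± 0.15 (SE, adjusted p = 0.0368, edgeR). Smarcb1 was higher as well, at 79.7 and 71.7 CPM in R63494, against 52.3 to 76.1 CPM in the other codes (0.29 ± 0.09, adjusted p = 0.0329), with overlap through R62850_1. These were 2 of 10 genes, where 8.03% of all tested genes were higher (and 8.73% lower). Both calls were lost when either R63494 library was left out, and that of Kmt2d also without R62848_1, R62848_3, R63289_2 or R63500_2. Heat shock genes summed to 2809 to 2836 CPM in R63494, against 170 to 1915 CPM in the other codes, fibroblast and matrix genes to 3038 to 3568 CPM, against 4915 to 15237 CPM, and proliferation markers to 33.9 to 39.9 CPM, against 49.5 to 152 CPM. Their part in the result was not tested.

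Smarca4 was higher in R63500, at 190, 198 and 201 CPM, against 137 to 192 CPM (median 169) in the other codes, a log2 difference of 0.25 ± 0.06 (SE, adjusted p = 0.00768). It was the only one of the 10 genes called there, where 11.7% of tested genes were higher and 7.3% lower. The R63500 libraries were tightly grouped and touched the others only through R63494_2. The call was lost without R63500_3. Neutrophil markers summed to 258 to 468 CPM in R63500, against 565 to 1607 CPM in the other codes, fibroblast and matrix genes to 13520 to 15237 CPM, against 3038 to 13708 CPM, and proliferation markers to 96.1 to 152 CPM, against 33.9 to 104 CPM. Their part in the result was not tested.

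Arid2 was lower in R63496, at 59.9, 45.3 and 45.3 CPM, against 46.0 to 73.3 CPM in the other codes (-0.30 ± 0.09, adjusted p = 0.0299), 1 of 10 genes where 4.79% of tested genes were lower. The call was lost without R63496_2, without R63496_3 or without R63494_1, and without R63496_1, 7 of the 10 genes were called. Over all tested genes the leave-outs gave 550 to 2344 calls in R63496, against 1707 in the full fit. The share of all tested genes called without R63496_1 is not given here, so the 7 is not a result about these genes. In R62848, Arid2 was higher, with a mean of 68.5 CPM against 58.9 CPM over the other codes (0.23 ± 0.08, adjusted p = 0.0443), 1 of 10 where 13.1% of tested genes were higher and 8.8% lower, and this call was lost in 13 of the 17 leave-outs. Endothelial markers summed to 256 to 274 CPM in R62848, against 97.8 to 222 CPM in the other codes, and fibroblast and matrix genes to 12086 to 13708 CPM, against 3038 to 15237 CPM, and their part in the result was not tested. With limma on recomputed FPKM in place of edgeR, the calls in R62848, R63494 and R63496 were all lost (0 of 10 genes in each). Code R63289 had 0 of 10 genes called by edgeR, beside 2.42% of tested genes higher and 1.75% lower. None of the 10 reached an unadjusted p under 0.05 there (0 genes), and DESeq2 and limma also called 0.

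**Figure D4:**
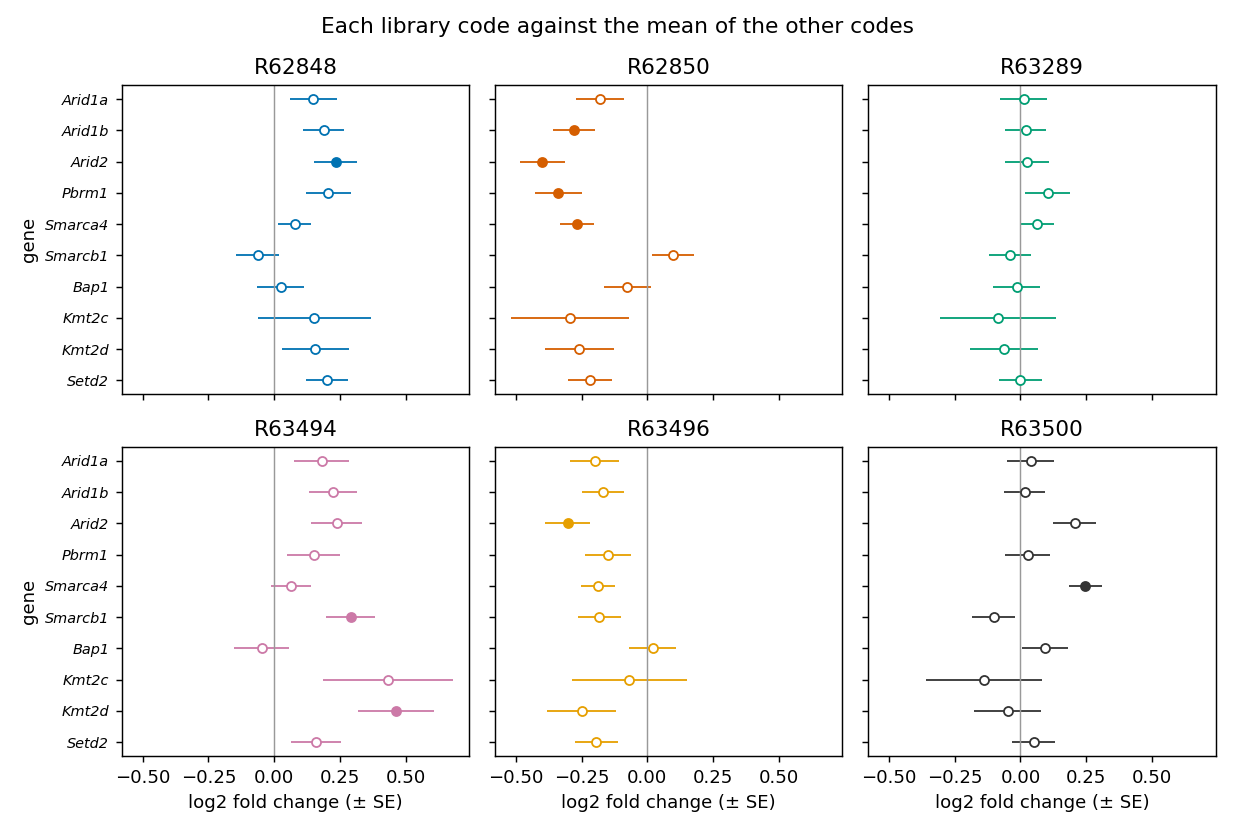
log2 fold change of each gene in a code against the mean of the other 5 codes, with SE; filled points have an adjusted p below 0.05 by edgeR's quasi-likelihood test. Filled points are Arid1b, Arid2, Pbrm1 and Smarca4 in R62850 (-0.27 to -0.40), Kmt2d and Smarcb1 in R63494, Smarca4 in R63500, and Arid2 in R62848 and R63496.

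Ratios between related subunits within a library do not depend on library scaling. The ratio of Smarca4 to Smarca2, the 2 alternative ATPases, differed between codes (adjusted p = 0.00072, permutation F test with 100000 permutations, adjusted over 4 ratios). It was 1.81, 2.41 and 1.94 in R63500, against 1.21 to 1.67 in the other codes, so R63500 stood above every library of the other codes. It was lowest in R62850, at 1.40, 1.36 and 1.21. Smarca2 itself was at a mean of 117 CPM in R63500, against 135 CPM over the other codes, and did not pass (-0.20 ± 0.08, adjusted p = 0.0802).

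The other 3 ratios did not pass the test. Arid1a to Arid1b was a narrow 1.52 to 1.78 (median 1.60; permutation p = 0.282, adjusted 0.376). Arid2 to Pbrm1 was 0.509 to 0.705 (median 0.601; permutation p = 0.0867, adjusted 0.173), with the adjusted value at 0.0374 when R63500_2 was left out. Kmt2d to Kmt2c was 2.47 to 4.48 (median 3.31; permutation p = 0.982, adjusted 0.982). With principal transcript lengths the medians were 2.01, 0.562 and 2.46, and that of Smarca4 to Smarca2 was 1.17, above 1 in 16 of 17 libraries.

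**Figure D5:**
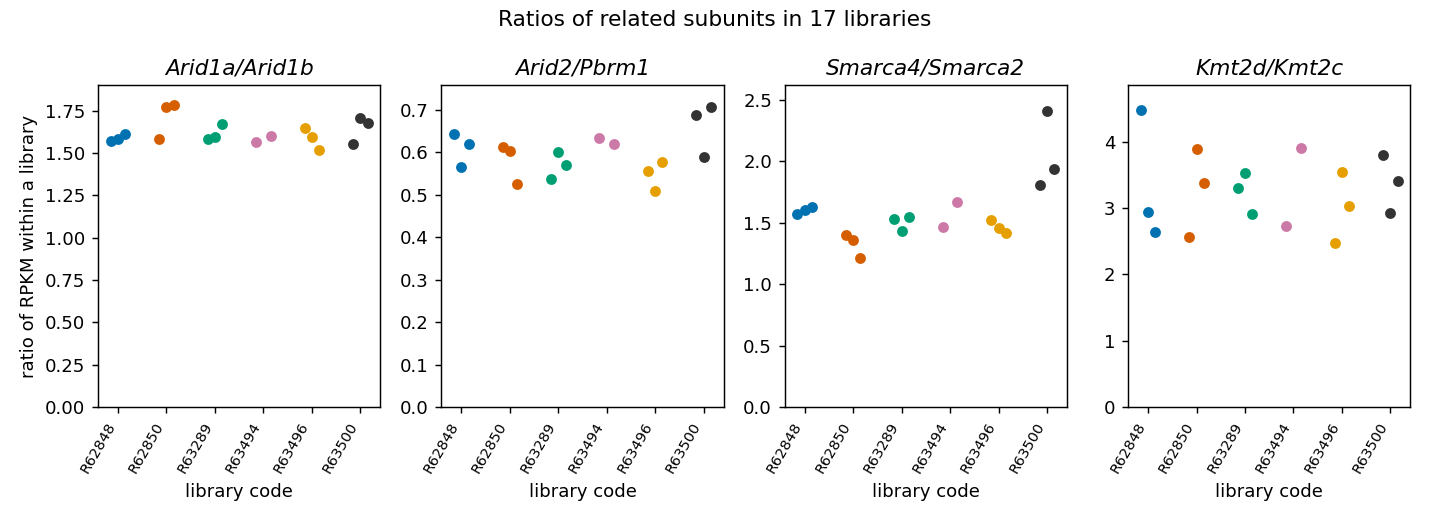
Ratio of RPKM within each library for 4 pairs of related subunits, by code; each point is a library and each axis starts at 0. Smarca4 to Smarca2 is highest in R63500 (1.81 to 2.41) and lowest in R62850 (1.21 to 1.40), while Arid1a to Arid1b stays between 1.52 and 1.78.

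Of the partner genes, 4 of 19 tested further SWI/SNF subunits differed between codes, where 42.2% of all tested genes did. So did 4 of 12 genes of the COMPASS list, which holds methyltransferases of lysine 4 of histone H3 and their partners. The counts were 6 of 10 for BAP1 partners and 3 of 10 for Polycomb genes. For genes that write or read methylation of lysine 36 of histone H3 the count was 5 of 10. Among SWI/SNF subunits the scaffold Smarcc2 had the highest level (37.4 RPKM), followed by Smarcd2 (33.2 RPKM) and Smarcd3 (30.1 RPKM). Bcl7c, at 15.2 to 32.5 CPM, had the largest SD of log2 CPM. Dpy30 (23.8 RPKM), Kmt2b (13.1 RPKM) and Wdr5 (11.96 RPKM) led the COMPASS list, in which Kdm6a and Kmt2a (64.9 to 165 CPM) varied most.

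Ogt (29.0 RPKM), a glycosyltransferase, Mbd6 (27.3 RPKM) and Hcfc1 (18.6 RPKM) led the BAP1 partners, while Asxl3 had only 0 to 1.72 CPM and Asxl2 was at 30.0 to 64.6 CPM. Among the lysine 36 genes Supt6 (20.7 RPKM), Nsd1 (11.2 RPKM) and Ash1l (8.15 RPKM) were highest and Nsd2 was at 31.7 to 72.9 CPM. In R62850, 6 of these 10 were lower (Nsd2, Nsd3, Ash1l, Iws1, Supt6 and Dnmt3a), as were 4 of 10 BAP1 partners (Asxl1, Asxl2, Hcfc1 and Ogt), 2 of 19 SWI/SNF subunits (Smarcc1 and Ss18) and 2 of 12 COMPASS genes (Kdm6a and Ncoa6), beside 11.2% of all tested genes and 30.2% of those over 8000 bases. In the same code 1 of 10 Polycomb genes, Rbbp4, was called, and it was higher. Of the Polycomb genes Rbbp4 (15.9 RPKM), Bmi1 and Eed (14.9 RPKM each) were highest, and Pcgf1 (5.52 to 10.6 CPM) and Ring1 (27.8 to 51.7 CPM) varied most.

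Kdm6a, the X-linked demethylase that works with Kmt2c and Kmt2d, had the clearest difference between codes of the COMPASS list. It was at 27.0 to 38.4 CPM in R62850, against a mean of 52.8 CPM over the other codes (-0.70 ± 0.12, adjusted p = 0.000445), at 30.1 and 48.1 CPM in R63494, and at 44.2 to 64.6 CPM in the remaining 4 codes. In the same 5 libraries of R62850 and R63494 the X-inactivation RNA Xist was at 0.645 to 5.84 CPM, against 660 to 1476 CPM elsewhere, and the Y-linked Uty at 18.9 to 32.4 CPM, against 0 counts elsewhere. Xist and Uty were chosen after their values were seen, and their part in the Kdm6a difference was not tested. R62850 and R63494 had 4 and 2 of the 10 genes called, beside 4225 and 3253 of the 19412 tested genes. R62848 and R63500 had 4250 and 3680 tested genes called, with 1 of the 10 in each. None of the 10 genes is X-linked, and whether their levels followed Xist or Uty was not tested. Of the 2 codes with Uty counts, Arid2 averaged 68.6 CPM in R63494 and 47.5 CPM in R62850, and Kmt2d averaged 372 CPM in R63494 and 245 CPM in R62850, and these 2 codes alone were not tested against each other.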

How the data were processed

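The deposited table of the authors gave whole-number read counts per gene, with position, length and name of each gene. Per the submitters' processing notes, STAR 2.6.1c, featureCounts, edgeR 3.40.2 and the build mm10 were used, with no role or order given. Neither the annotation release nor the strand setting is given in the sources used here. The 17 columns of FPKM carry no printed result: a fit on them was made and then withdrawn, since they could not be tied to samples beside the counts.

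The 17 count columns were tied to the single labelled group, not to single samples. Genes were kept with filterByExpr (19412 genes) and TMM-scaled, and log2 CPM used a prior count of 2. The edgeR 4.0.16 quasi-likelihood test in R 4.3.3 was fitted on code over all kept genes, and p-values were adjusted by Benjamini-Hochberg over them (threshold 0.05). Ratios used RPKM plus 0.1. DESeq2 1.42.0, limma 3.58.1 on log2(FPKM + 1) with FPKM recomputed from the counts, no filter on low counts, other scaling and leaving out libraries or code R62850 were tried. The fit was tested on simulated data with 50 genes changed in R62850 at each size. At a log2 difference of 0.25, the comparison of R62850 with the other codes recovered 8% of them and the test over the codes 0%. At 0.5 these were 66% and 40%.

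The 10 genes, the lists and the codes as a factor were chosen with earlier results of these data known. The text names all 10 genes, Smarca2 and Kdm6a, and in each partner list the 3 genes of highest median RPKM and the 2 of largest SD. It also names the 2 genes nearest to each of the 10 (1 of them is not reported here) and, outside this rule, partner genes lower in R62850, Xist and Uty.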

Additional observations from a re-analysis of the deposited data

How the results depend on the processing

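Directions were compared only for the differences of a gene in a code that passed in the main fit. None of those turned under the alternatives run (limma, DESeq2 or its size factors, no filter, code R62850 or a library left out). The number of the 10 genes called in R62848 was 0, against 1, with DESeq2 size factors, with DESeq2, with no filter and without code R62850. In R63496 it was 2 with DESeq2 and without code R62850, in R63494 it was 1 with no filter, and in R63500 it was 0 without code R62850. Over all codes it was 2, against 5, without code R62850, when 2843 genes, against 1707, were called in R63496. With principal transcript lengths the median RPKM was 21.5 for Arid1a, 14.9 for Bap1, 13.1 for Pbrm1, 37.99 for Smarcb1, 7.31 for Arid2 and 5.59 for Kmt2c, because those lengths are shorter. The cause of the other shifts was not tested. A limma fit and ratios on the deposited FPKM columns were made and then withdrawn, because those columns could not be tied to samples beside the counts. In their place, limma on log2(FPKM + 1) with FPKM recomputed from the counts, added after the data were seen, called 0 of the 10 genes in each of R62848, R63494 and R63496, against 1, 2 and 1, and 4, 5 and 1 over all codes, in R62850 and in R63500.

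Leaving out each library in turn gave 7188 to 8531 called genes over the codes, with 3 to 8 of the 10. It gave 2336 to 4713 genes (0 to 4 of the 10) in R62848, 2418 to 4667 (1 to 6) in R62850, 318 to 915 (0 to 0) in R63289, 1737 to 3710 (0 to 5) in R63494, 550 to 2344 (0 to 7) in R63496 and 2045 to 4091 (0 to 2) in R63500. Adjusted permutation p-values of the ratios were 0.0811 to 0.845 for Arid1a to Arid1b, 0.0374 to 0.416 for Arid2 to Pbrm1, 0.00112 to 0.00952 for Smarca4 to Smarca2 and 0.812 to 1.0 for Kmt2d to Kmt2c. With 1 R63494 library left out, the remaining one was assumed to vary like the others. No paired analysis was possible because all samples belong to 1 group. With 2 or 3 libraries a code, differences as small as most of those seen here may be missed.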
